A study of Mus musculus with 20 samples.

Results

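The chemokines and their receptors were followed as a family across 20 kidneys of a mouse model of Alport syndrome, a hereditary kidney disease in which the collagen network of the glomerular basement membrane is defective. Members were taken by symbol alone. A gene was a member when its symbol was Ccl, Cxcl, Ccr, Cxcr or Ackr followed by a number, Cx3cl1, Cx3cr1, Xcl1, Xcr1 or Ccrl2. Of 47069 genes counted, 64 were members, 40 ligands and 24 receptors, and 54 of these were among the 17622 genes abundant enough to be tested. The 10 members left out were Ccl19-ps3, Ccl21b, Ccl26 and Ccl27b, which had 0 counts in every mouse, Cxcr1, which had at most 3 counts in any mouse, and Ccl1, Ccr1l1, Ccr3, Ccr8 and Cxcl15, which were above that but under the filter. The filter asks for counts in as many mice as the smallest group holds, so a member that is near 0 in healthy kidney could pass through the diseased groups only, and counts over the 54 describe those that passed.

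All mice were 15-week-old males on a mixed background, the F1 of 129SJ, which the study's paper writes as 129/SvJ, and C57Bl/6J. The WT group (n = 5) carried an intact Col4a3 gene and was untreated. The other 3 groups were Col4a3-/-, a disruption carried by the whole body that removes the collagen IV alpha 3 chain, and treatment started at 5 weeks. Veh mice (n = 6) had weekly subcutaneous PBS. Anti-miR-21 mice (n = 6) had weekly subcutaneous lademirsen at 50 mg/kg, an oligonucleotide that inhibits the microRNA miR-21. ACEi mice (n = 3) drank the angiotensin-converting enzyme inhibitor ramipril at 11 mg/L, and the study's methods give them PBS injections as well. No WT mouse had an injection or a drug, so the treatments were seen in diseased kidney only, and ACEi rested on 3 animals. The deposited list of libraries writes the ramipril dose per kg where the labels write it per litre, and an extraction text in the labels speaks of adipose tissue although the tissue is given as kidney.

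Each library was 1 kidney of 1 mouse, named here by the mouse (A1 to A23). The libraries held 28474301 to 29479629 counts. Levels are in CPM, counts scaled to a common library size, after TMM scaling, which corrects for differences in library make-up. Fold changes are on the log2 scale with their standard error. A gene is called higher or lower when the p-value of edgeR's quasi-likelihood test, adjusted over all 17622 genes by Benjamini-Hochberg, is below 0.05. Reads of Col4a3 were still present in the knockout, at 27.9 to 46.3 CPM in Veh against 194 to 238 CPM in WT. The kidney markers were in place in every group, with summed CPM of 5 proximal tubule markers of 1291 to 3629 in Veh and 11689 to 14986 in WT. In whole tissue, fewer cells of a type and less RNA per cell cannot be told apart, and this holds for every level below.

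Chemokines are small secreted proteins that guide white blood cells along a concentration gradient, and their receptors are G-protein-coupled receptors on the migrating cell. Families of ligands share receptors: monocytes follow CCR2 ligands, neutrophils follow CXCR2 ligands and activated T cells follow CXCR3 ligands. Other members run a resting traffic, drawing lymphocytes to lymphatic vessels and mucosal surfaces. Atypical receptors bind chemokines without the usual G-protein signal and mostly remove them. In kidney, injured tubule cells and infiltrating macrophages are known sources of the inflammatory ligands.

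The target of lademirsen is shown first, since most treated mice here had Anti-miR-21. The mature mouse miR-21 (mmu-miR-21a-5p, RefSeq, GRCm38.p6, chr11:86584120-86584141, minus strand) is printed with its seed, bases 2 to 8, in capitals.
mmu-miR-21a-5p: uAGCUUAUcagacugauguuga
Its seed match ATAAGCT was looked for in the 3′ UTR of every tested gene with an annotated UTR (GRCm38, GENCODE vM21), and 1237 of 15245 genes held it (8.11%). Among tested members 8 of 53 held it (15.1%), namely Ccl3, Ccl9, Ccl20, Ccl22, Ccr9, Cxcl9, Cxcr6 and Xcr1. A window around the match is printed for the 4 of these whose levels are given mouse by mouse, with the match in capitals. The matches lie at chr11:83573932-83573938 on the minus strand (Ccl9), chr1:83119046-83119052 on the plus strand (Ccl20), chr8:94750816-94750822 on the plus strand (Ccl22) and chr5:92322340-92322346 on the minus strand (Cxcl9).
Ccl9: aaattttttttgATAAGCTgac
Ccl20: tttttgtcaacaATAAGCTatt
Ccl22: ttgtttggtattATAAGCTata
Cxcl9: ccatctagaaacATAAGCTtac
A match is a run of letters and not a shown binding site. Against Veh, Ccl9 and Ccr9 were lower in Anti-miR-21 mice and the other 6 were not called.

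Promoters, from 250 bases before to 50 after the RefSeq gene start, are printed for a pair of ligands that stood far above WT in every knockout mouse (Cxcl10 and Cxcl2), for the member called between the treatments (Cx3cl1) and for the member that fell furthest (Ccl28). Capitals mark 2 GAAA blocks with 2 bases of any kind between them, a form of the interferon-stimulated response element, and GGAANNNCC, a short form of the kappaB site, on either strand. The windows are chr5:92348840-92349139 on the minus strand (Cxcl10), chr5:90903649-90903948 on the plus strand (Cxcl2), chr8:94771930-94772229 on the plus strand (Cx3cl1) and chr13:119623569-119623868 on the plus strand (Ccl28), all GRCm38.p6.
Cxcl10: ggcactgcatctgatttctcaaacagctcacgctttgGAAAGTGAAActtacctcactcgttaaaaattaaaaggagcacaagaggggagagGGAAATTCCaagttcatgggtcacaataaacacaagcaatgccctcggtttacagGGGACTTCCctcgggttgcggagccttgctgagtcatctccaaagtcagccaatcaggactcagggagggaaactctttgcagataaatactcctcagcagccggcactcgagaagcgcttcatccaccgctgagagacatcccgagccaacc
Cxcl2: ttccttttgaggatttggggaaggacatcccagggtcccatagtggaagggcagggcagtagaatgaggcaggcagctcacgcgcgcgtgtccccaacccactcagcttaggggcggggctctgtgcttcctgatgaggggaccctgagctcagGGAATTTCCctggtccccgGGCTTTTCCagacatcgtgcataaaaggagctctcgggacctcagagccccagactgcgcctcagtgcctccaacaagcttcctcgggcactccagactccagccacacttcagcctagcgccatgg
Cx3cl1: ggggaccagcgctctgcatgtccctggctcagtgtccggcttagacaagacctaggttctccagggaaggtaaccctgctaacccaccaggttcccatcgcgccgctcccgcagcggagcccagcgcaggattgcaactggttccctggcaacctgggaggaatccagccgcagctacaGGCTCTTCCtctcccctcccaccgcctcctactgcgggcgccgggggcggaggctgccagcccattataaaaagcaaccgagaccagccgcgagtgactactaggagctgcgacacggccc
Ccl28: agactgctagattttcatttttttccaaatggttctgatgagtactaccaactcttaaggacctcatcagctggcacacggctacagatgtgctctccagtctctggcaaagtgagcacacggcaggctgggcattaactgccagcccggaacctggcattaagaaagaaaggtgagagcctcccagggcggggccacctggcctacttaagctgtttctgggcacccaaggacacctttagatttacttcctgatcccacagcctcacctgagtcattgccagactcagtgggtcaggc
Counted so that -1 is the base before the start, the Cxcl10 window held the GAAA pair from -213 and GGAANNNCC from -158 and from -103. The Cxcl2 window held GGAANNNCC from -96 and from -77, the Cx3cl1 window held it from -71, and the Ccl28 window held neither. Of 27025 promoters, 3.99% held the GAAA pair, and of the 47 members with an entry 3 did (6.38%): Ccl19, Cxcl10 and Cxcl14. GGAANNNCC was in 20.7% of all promoters and in 18 of the 47 (38.3%). A looser kappaB form, GGG and CC with 5 bases of any kind between them, overlaps the short form where both fit and was in 53.5% of all promoters and 28 of the members (59.6%). Of all promoters 8.97% held the AP-1 letters TGANTCA, 9.55% the GAS letters TTCNNNGAA and 12.2% the C/EBP letters TTGCNNAA, against 9 (19.1%), 4 (8.51%) and 5 (10.6%) of the 47. These shares are a description of letters within the windows.

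The first comparison, Veh against WT, asks how the family stood in Alport kidney by 15 weeks. Veh mice had PBS injections and WT mice had none, and the part of the injections was not tested. Most of the chemokine system stood higher in Veh kidney, ligands and receptors alike. Ligands for monocytes (Ccl2, Ccl7), neutrophils (Cxcl2, Cxcl5) and T cells (Cxcl10, Ccl5) were at no more than a few CPM in WT and rose, as did the receptors Ccr1, Ccr2 and Cx3cr1. Against this, the mucosal ligand Ccl28 fell to a small part of its WT level and Ccl25 fell less. Of the 54 members tested 46 were called higher (85.2%), where 39% of all genes tested were, and 3 were called lower (5.56%), where 34% of all genes were. The median log2 fold change was 3.08 over the members and 0.07 over all genes tested, and the members' median is the same with Ccl20, which had no WT count, set at its lower bound. No Veh mouse shared the WT range for 38 of the higher members (70.4% of those tested), where 28.8% of all genes were called higher without overlap, and for 2 of the lower ones (3.7%), where 26.1% of all genes were. Within the flow cell FCH5V5HBBXX, which held 3 WT and 4 Veh libraries, 47 members were called, and within FCH5Y3GBBXX, with 2 and 2, 43.

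**Figure D1:**
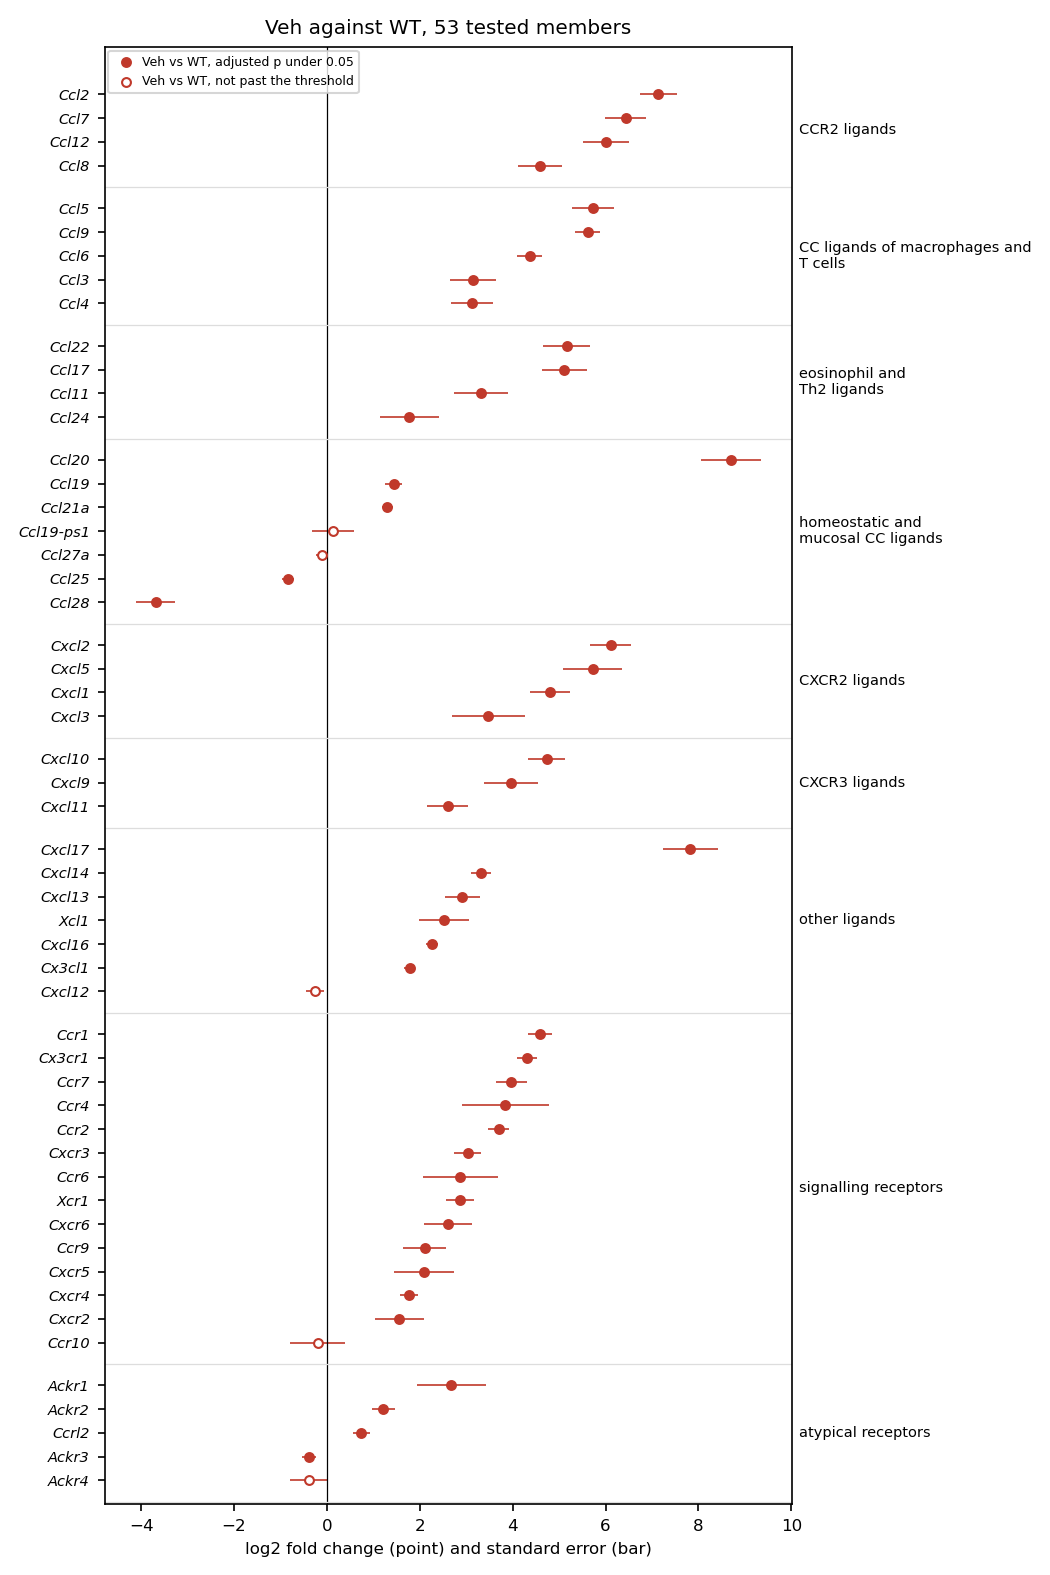
Log2 fold change of Veh over WT (x axis) for 53 of the 54 tested members (rows, ordered by role), with the standard error as a bar and filled points for members past the threshold. Filled points lie to the right of 0 for 45 members and to the left for Ccl25, Ccl28 and Ackr3, and the last of these lies to the right of 0, unfilled, when libraries are scaled by their totals alone. The point of Ccl20 depends on the fit because no WT library had a count.

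Among the ligands grouped here under CCR2, the receptor that brings inflammatory monocytes into tissue, 4 of 4 were higher. Ccl2, the main monocyte chemoattractant, had 0.0845, 0.164, 0.287, 0.401 and 0.419 CPM in the 5 WT mice, and 25.2 to 57.9 CPM (median 34.2) in the 6 Veh mice. Every WT mouse was below every Veh mouse by a wide margin. The log2 fold change was 7.14 ± 0.40 (adjusted p = 8.98e-12), a 141-fold difference. Ccl7, a relative that also acts on CCR1 and CCR3, had 0, 0, 0.0410, 0.0818 and 0.210 CPM in WT and 4.47 to 8.35 CPM (median 6.09) in Veh. No value was shared between the groups, and 2 WT kidneys had no count. Its log2 fold change was 6.43 ± 0.45 (adjusted p = 1.14e-10). Ccl8, whose mouse protein is best known as a ligand of CCR8, had 0, 0.178, 0.410, 0.545 and 1.31 CPM in WT and 8.29 to 18.5 CPM (median 11.3) in Veh. The Veh mice lay above WT throughout, with a log2 fold change of 4.58 ± 0.48 (adjusted p = 3.26e-08). Ccl12, found in rodents, rose by 6.01 ± 0.49 (adjusted p = 9.11e-10).

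The CC ligands of macrophages and effector T cells, CCR1 ligands among them, were higher in 5 of 5 cases. Ccl5, made by T cells and injured epithelium, had 0.0419, 0.267, 0.328, 0.676 and 0.736 CPM in WT and 8.65 to 46.1 CPM (median 19.1) in Veh. The groups were apart, and the spread within Veh was large because mouse A16 lay well above the rest. On the log2 scale the difference was 5.72 ± 0.45 (adjusted p = 6.54e-10). Ccl6, a rodent CCR1 ligand of macrophages, had 1.13, 1.34, 1.55, 2.32 and 2.54 CPM in WT and 29.2 to 54.1 CPM (median 34.0) in Veh. Here mouse A9 stood above the other Veh mice, and no WT mouse reached the Veh range. Its log2 fold change was 4.37 ± 0.27 (adjusted p = 2.96e-11). Ccl9, the neighbour of Ccl6 with the same receptor, had 0.492, 0.503, 0.591, 0.802 and 1.14 CPM in WT and 30.0 to 41.1 CPM (median 33.4) in Veh. The Veh mice were close together and far above WT, with a log2 fold change of 5.61 ± 0.27 (adjusted p = 1.5e-12). Ccl3 and Ccl4, the macrophage inflammatory proteins, rose by 3.15 and 3.13 on the log2 scale from levels under 1 CPM in every WT mouse.

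Of the ligands that draw eosinophils and Th2 cells 4 of the 4 tested were higher, and Ccl1 and Ccl26 were not tested. Ccl17, a ligand of CCR4 made by dendritic cells, had 0, 0, 0.0845, 0.126 and 0.327 CPM in WT and 2.99 to 4.86 CPM (median 3.93) in Veh. All Veh mice exceeded all WT mice, and the log2 fold change was 5.11 ± 0.48 (adjusted p = 6.15e-09). Ccl22, the partner of Ccl17 on CCR4, had 0, 0.0891, 0.123, 0.211 and 0.450 CPM in WT and 2.04 to 8.77 CPM (median 6.87) in Veh. Mouse A9 had the lowest Veh value and still exceeded WT. In the fit the difference was 5.17 ± 0.50 (adjusted p = 1.19e-08). The eotaxins Ccl11 and Ccl24 rose by 3.33 and 1.77, and Ccl24 overlapped between the groups. Ccl11 was high in Veh mice A1 and A4, at 9.04 and 7.70 CPM, against 0.756 to 2.23 CPM in the other 4. Both of those kidneys, and Veh mouse A9, also carried adipocyte transcripts, with 4 adipocyte markers summing to 382, 319 and 312 CPM. Mouse A9 nevertheless had the lowest Ccl11 level in Veh, 0.756 CPM. The part of those transcripts in the Ccl11 level was not tested.

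The homeostatic and mucosal CC ligands split, with 3 of the 7 tested higher and 2 lower, where 39% and 34% of all genes were. Ccl20, the ligand of CCR6 on Th17 cells and B cells, had no count in any of the 5 WT kidneys and 1.08 to 2.50 CPM (median 1.87) in Veh. Every Veh mouse expressed it. Against a floor of 3 counts in the WT library where that is worth most, 0.134 CPM, the Veh mean of 1.76 CPM was at least 13.2-fold higher (adjusted p = 2.78e-09). Ccl21a, made by lymphatic endothelium to call CCR7-bearing dendritic cells, had 5.91, 6.01, 6.44, 6.76 and 9.36 CPM in WT and 15.6 to 19.7 CPM (median 16.3) in Veh. The groups did not overlap, and the log2 fold change was 1.30 ± 0.12 (adjusted p = 3.95e-09). Beside it the sum of 4 lymphatic endothelium markers was 16.4 to 29.1 CPM in WT and 43.6 to 62.2 CPM in Veh. Of these markers 3 were called higher and 1 lower, and their part in the Ccl21a level was not tested. Ccl21a has near-identical copies in the genome, so its reads may be shared with them. Ccl19, the other CCR7 ligand, rose by 1.44, while Ccl27a, a skin ligand of CCR10, and the pseudogene Ccl19-ps1 were not called, at -0.11 and 0.13.

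The 2 members of that group that fell were epithelial ligands, and 5 proximal tubule markers fell beside them, whose part was not tested. Ccl28, a mucosal ligand of CCR10 and CCR3, had 60.5, 78.5, 111, 151 and 220.2 CPM in WT and 6.25 to 14.7 CPM (median 9.06) in Veh. The lowest WT mouse was far above the highest Veh mouse, though the WT mice differed widely among themselves. Ccl28 fell by 3.69 ± 0.42 on the log2 scale (adjusted p = 1.31e-07). Ccl25, the CCR9 ligand of thymus and small intestine, had 3.93, 3.98, 4.05, 5.57 and 6.12 CPM in WT and 2.44 to 2.996 CPM (median 2.57) in Veh. The groups did not overlap, and Ccl25 fell by 0.84 ± 0.14 on the log2 scale (adjusted p = 1.33e-05). With libraries scaled by their totals alone the fall of Ccl25 was not called (log2 fold change -0.25, adjusted p = 0.0935), while that of Ccl28 was. Ccl25 overlaps Elavl1 on the opposite strand, and the strandedness of the counts is not given in the sources used here.

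Of the ligands of CXCR2, the receptor that draws neutrophils, 4 of the 4 tested were higher and Cxcl15 was not tested. Cxcl1 had 0.356, 0.369, 0.629, 1.06 and 2.003 CPM in WT and 12.6 to 42.9 CPM (median 23.2) in Veh. WT mouse A17 was the highest of its group and still well below Veh. The log2 fold change was 4.80 ± 0.43 (adjusted p = 3.69e-09). Cxcl2, its close relative, had 0.0445, 0.0820, 0.0839, 0.0845 and 0.204 CPM in WT and 4.49 to 13.1 CPM (median 6.27) in Veh. The groups were far apart, with A17 the highest WT mouse again and A19 the highest Veh mouse. Its log2 fold change was 6.11 ± 0.44 (adjusted p = 1.89e-10). Cxcl5, an epithelial member, had 0, 0, 0, 0.286 and 0.591 CPM in WT and 4.57 to 12.8 CPM (median 10.1) in Veh. WT kidneys mostly had no count, Veh kidneys all had several CPM, and the log2 fold change was 5.72 ± 0.63 (adjusted p = 6.87e-08). Cxcl3 stayed under 1 CPM in every mouse and rose by 3.48. The sum of 6 neutrophil markers was 0.718 to 4.28 CPM in WT and 15.2 to 22.2 CPM in Veh, and its part was not tested. Of the 4 markers tested 2 were called higher, where 39% of all genes were. These ligands lie together on chromosome 5 with Cxcl15 (chr5:90759360-90905938, GRCm38).

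The interferon-induced ligands of CXCR3, the receptor of activated T cells and NK cells, were higher in 3 of 3 cases. Cxcl10 had 0.891, 1.43, 1.64, 2.003 and 2.37 CPM in WT and 15.7 to 81.5 CPM (median 38.2) in Veh. No WT mouse came near the lowest Veh mouse, A9, and A16 was the highest. On the log2 scale the difference was 4.73 ± 0.39 (adjusted p = 1.21e-09). Cxcl9 had 0.356, 0.451, 0.507, 0.629 and 0.695 CPM in WT and 2.49 to 22.8 CPM (median 5.81) in Veh. The groups did not overlap, and A16 exceeded the next Veh mouse by more than the others exceeded each other. Its log2 fold change was 3.97 ± 0.58 (adjusted p = 3.77e-06). Cxcl11, annotated as a polymorphic pseudogene, rose by 2.60, and like Cxcl10 it lies within Art3 on the opposite strand. Veh mouse A16 also had the highest T cell marker sum, 39.9 CPM over 6 markers against 13.7 to 25.1 CPM in the other Veh mice. Without A16 the log2 fold changes were 4.47 for Cxcl10, 3.36 for Cxcl9 and 1.97 for Cxcl11, and 0 of the 3 lost the call.

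Among the other ligands 6 of 7 were higher. Cx3cl1, fractalkine, which is anchored in the membrane of endothelium and tubule and binds CX3CR1, had 91.6, 116, 117, 131 and 140.2 CPM in WT and 348 to 470.4 CPM (median 414) in Veh. The groups were apart, and the log2 fold change was 1.78 ± 0.11 (adjusted p = 3.34e-11). Cxcl14, an epithelial and stromal chemokine, had 6.92, 13.5, 15.5, 19.1 and 20.2 CPM in WT and 126 to 168 CPM (median 149.9) in Veh. Each Veh kidney exceeded each WT kidney several-fold, with a log2 fold change of 3.31 ± 0.22 (adjusted p = 5.65e-11). Cxcl17, a mucosal chemokine, had 0, 0, 0, 0.0419 and 0.0422 CPM in WT and 2.37 to 7.84 CPM (median 3.98) in Veh. The WT group held 2 counts in all against 1014 in Veh, a ratio of 285 after scaling with a counting interval of 78.6 to 2352 (adjusted p = 3.59e-10). Cxcl12, the stromal ligand of CXCR4, was not called, with 98.7, 147, 188, 216 and 219.3 CPM in WT and 97.5 to 226 CPM (median 142) in Veh. Those ranges overlapped almost wholly, and the log2 fold change was -0.26 ± 0.20 (95% interval -0.67 to 0.15, adjusted p = 0.243). Cxcl13, the B cell attractant, Cxcl16, the ligand of CXCR6, and Xcl1, a T and NK cell product, rose by 2.91, 2.27 and 2.52.

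Of the signalling receptors 14 of the 15 tested were higher, and Ccr1l1, Ccr3, Ccr8 and Cxcr1 were not tested. Cx3cr1, the fractalkine receptor of monocytes and resident macrophages, had 2.13, 2.52, 2.91, 2.94 and 5.33 CPM in WT and 57.4 to 69.5 CPM (median 62.0) in Veh. Veh mice were close to each other and far above WT. In the fit the difference was 4.31 ± 0.22 (adjusted p = 3.1e-12). Ccr2 had 2.81, 3.92, 3.92, 6.12 and 8.33 CPM in WT and 54.02 to 73.6 CPM (median 67.7) in Veh. There was no overlap, and the log2 fold change was 3.70 ± 0.23 (adjusted p = 2.35e-11). Ccr1, on monocytes and neutrophils, had 0.338, 0.450, 0.461, 0.490 and 0.615 CPM in WT and 8.02 to 19.4 CPM (median 9.83) in Veh. Mouse A9 led the Veh group, every Veh mouse exceeded WT, and the log2 fold change was 4.59 ± 0.26 (adjusted p = 7.83e-12). Of the other 11 higher receptors, Cxcr2, of neutrophils, rose by 1.56 and Ccr7, which guides dendritic cells to lymph nodes, by 3.97. Ccr4 and Ccr6 stayed under 0.5 CPM in every WT and Veh mouse, and for Ccr4 the ratio of 63 Veh to 2 WT counts was 17.7 after scaling (counting interval 4.69 to 149). Ccr10, the receptor of Ccl27a and Ccl28, was under 0.5 CPM in all mice of both groups and was not called (-0.20, 95% interval -1.45 to 1.05). The summed CPM of 6 macrophage markers rose beside these receptors, from 140 to 154 in WT to 817 to 998 in Veh, and its part in their levels was not tested.

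The atypical receptors gave a mixed result, with 3 of 5 higher and 1 lower, where 39% and 34% of all genes were. Ackr1, on red cells and venules, had 0, 0.0409, 0.0419, 0.0820 and 0.253 CPM in WT and 0.247 to 0.879 CPM (median 0.628) in Veh. Its ranges overlapped slightly, and the log2 fold change was 2.68 ± 0.75 (adjusted p = 0.0032). Ackr2, which clears inflammatory CC ligands, had 0.286, 0.294, 0.445, 0.549 and 0.656 CPM in WT and 0.787 to 1.24 CPM (median 1.05) in Veh. The groups did not overlap, with a log2 fold change of 1.22 ± 0.25 (adjusted p = 0.000208). Ccrl2, which binds chemerin without a signal of its own, had 1.51, 3.19, 3.30, 3.38 and 4.63 CPM in WT and 4.23 to 5.90 CPM (median 5.47) in Veh. One end of the ranges overlapped, since WT mouse A6 exceeded Veh mouse A9. The log2 fold change was 0.74 ± 0.18 (adjusted p = 0.00118).

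Ackr3, which removes CXCL12, depended on the scaling. It had 42.4, 76.2, 84.1, 88.0 and 96.2 CPM in WT and 53.6 to 64.2 CPM (median 59.4) in Veh. Most WT mice exceeded Veh, but A14 was the lowest mouse of both groups. With TMM it fell by 0.39 ± 0.15 on the log2 scale (adjusted p = 0.0301), and with library totals alone its log2 fold change was 0.20 (adjusted p = 0.247). In the TMM fit the call was also lost without WT mouse A3 (adjusted p = 0.105), A17 (0.0636) or A18 (0.0749) and without Veh mouse A16 (0.0576) or A20 (0.0546), as well as without A4, where the adjusted p was just over the threshold (0.05002). Upper-quartile scaling (-0.27, adjusted p = 0.116), a fit of the 2 groups alone (0.0559) and a filter of at least 10 counts in every mouse (0.0625) also lost it. Within FCH5V5HBBXX it was not called (-0.21, adjusted p = 0.4) and within FCH5Y3GBBXX it was (-0.66, adjusted p = 0.00423). Ackr4, the scavenger of the CCR7 ligands, was not called (-0.39).

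**Figure D2:**
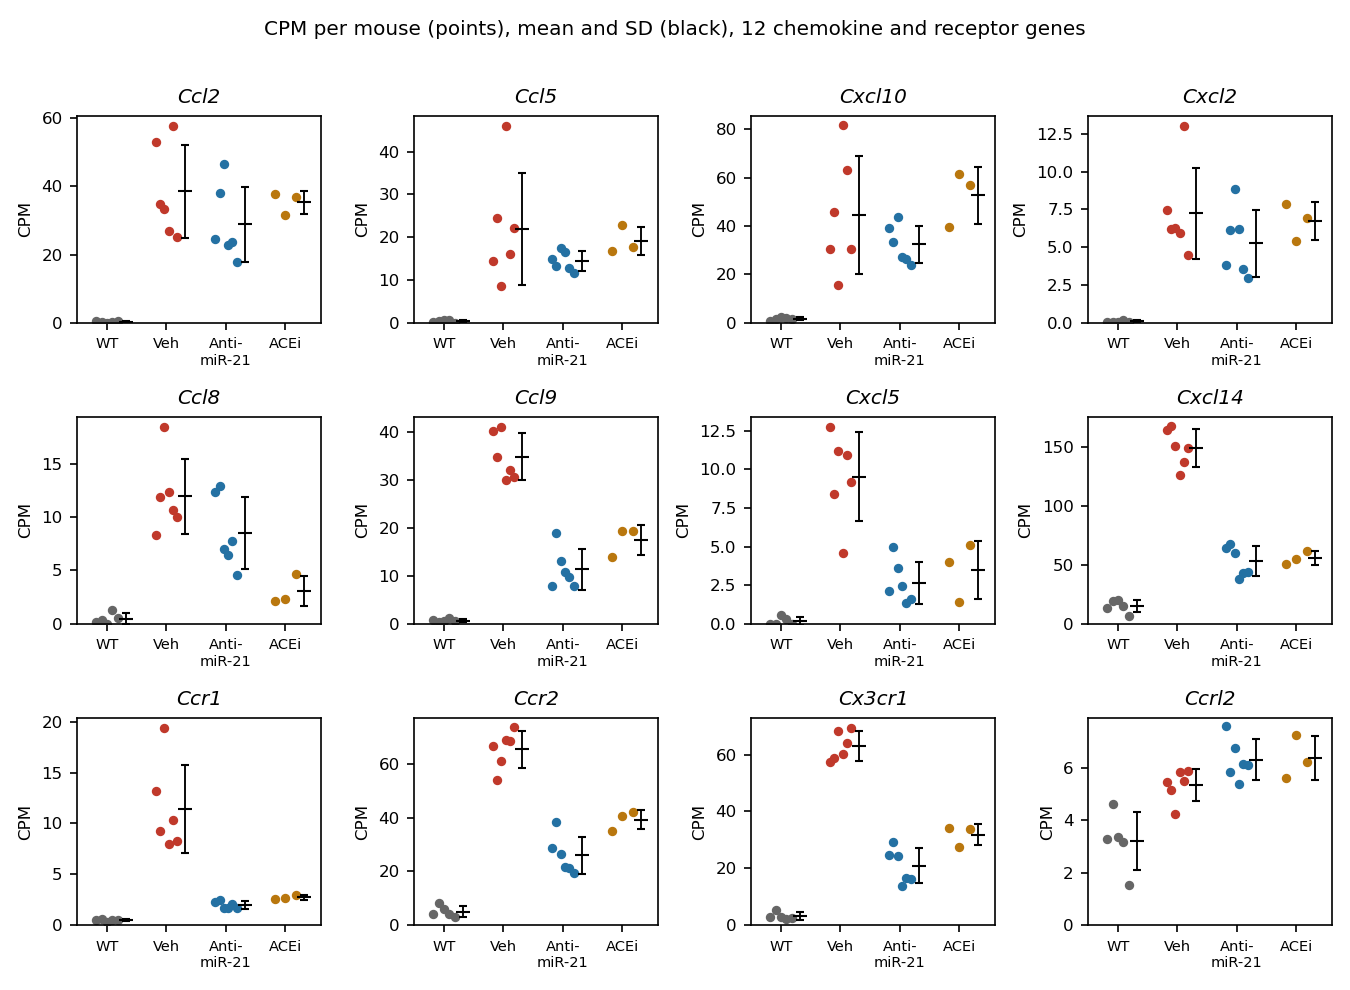
CPM (y axis) of 12 members in each mouse, grouped as WT, Veh, Anti-miR-21 and ACEi, with the group mean and SD in black. The WT mean is the lowest in every panel, for Ccl2 at 0.419 CPM or less against 25.2 CPM or more in Veh, and Ccr1 shows the treated groups well below Veh while Ccl2 and Cxcl10 show them overlapping Veh.

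Members lie in a few clusters of neighbouring genes, and in all but 1 of those named here every tested member rose. On chromosome 11 the run from Ccl2 to Ccl1 (chr11:82035571-82305690, GRCm38) held 6 members, of which 5 were tested and 5 rose. The run from Ccl5 to Ccl4 (chr11:83525778-83664683) held 5, and 5 rose. On chromosome 5 the CXCR3 ligands (chr5:92321347-92365485) all rose, as did Ccl22, Cx3cl1 and Ccl17 on chromosome 8 (chr8:94745590-94812036). The cluster of chromosome 4 (chr4:41769467-42773993), which holds Ccl27a, Ccl19 and Ccl21a with their copies, differed, with 2 of 4 tested members higher.

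The second pair of comparisons asks what each treatment did to the family in Alport kidney. Both are read against the same 6 Veh mice, so their fold changes share the Veh values and are given side by side. Lower members led in both treatments. Ccr1, Ccr2, Cx3cr1, Ccl6, Ccl9 and Cxcl14 were lower with Anti-miR-21 and lower with ACEi, and Ccl28 was higher with each. Ccl2, Ccl5, Cxcl2, Cxcl10 and Ccl20 were called with neither.

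With Anti-miR-21, 24 of the 54 tested members were called lower than in Veh (44.4%), where 30.5% of all genes tested were, and 4 were called higher (7.41%), where 28.8% of all genes were. Treated and Veh ranges were apart for 13 of the lower members (24.1% of those tested), where 17.8% of all genes were called lower without overlap, and for 2 of the higher ones (3.7%), where 18.5% of all genes were. The median log2 fold change over the members was -0.61, against -0.04 over all genes. With libraries scaled by their totals alone the split was 36 lower and 1 higher, and the median over all genes moved to -0.38. Within the flow cell FCH5V5HBBXX 29 members were called (4 Veh and 5 Anti-miR-21 libraries), and the other flow cell held 1 Anti-miR-21 library. With ACEi, 14 members were called lower than in Veh (25.9%), where 19.1% of all genes were, and 1 was called higher (1.85%), where 21% of all genes were. Ranges were apart for 11 of the lower members (20.4% of those tested), where 15.5% of all genes were called lower without overlap, and for the higher one (1.85%), where 18.4% of all genes were. The median log2 fold change was -0.27 over the members and -0.05 over all genes. Within FCH5Y3GBBXX 8 members were called (2 Veh and 2 ACEi libraries), and the other flow cell held 1 ACEi library.

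**Figure D3:**
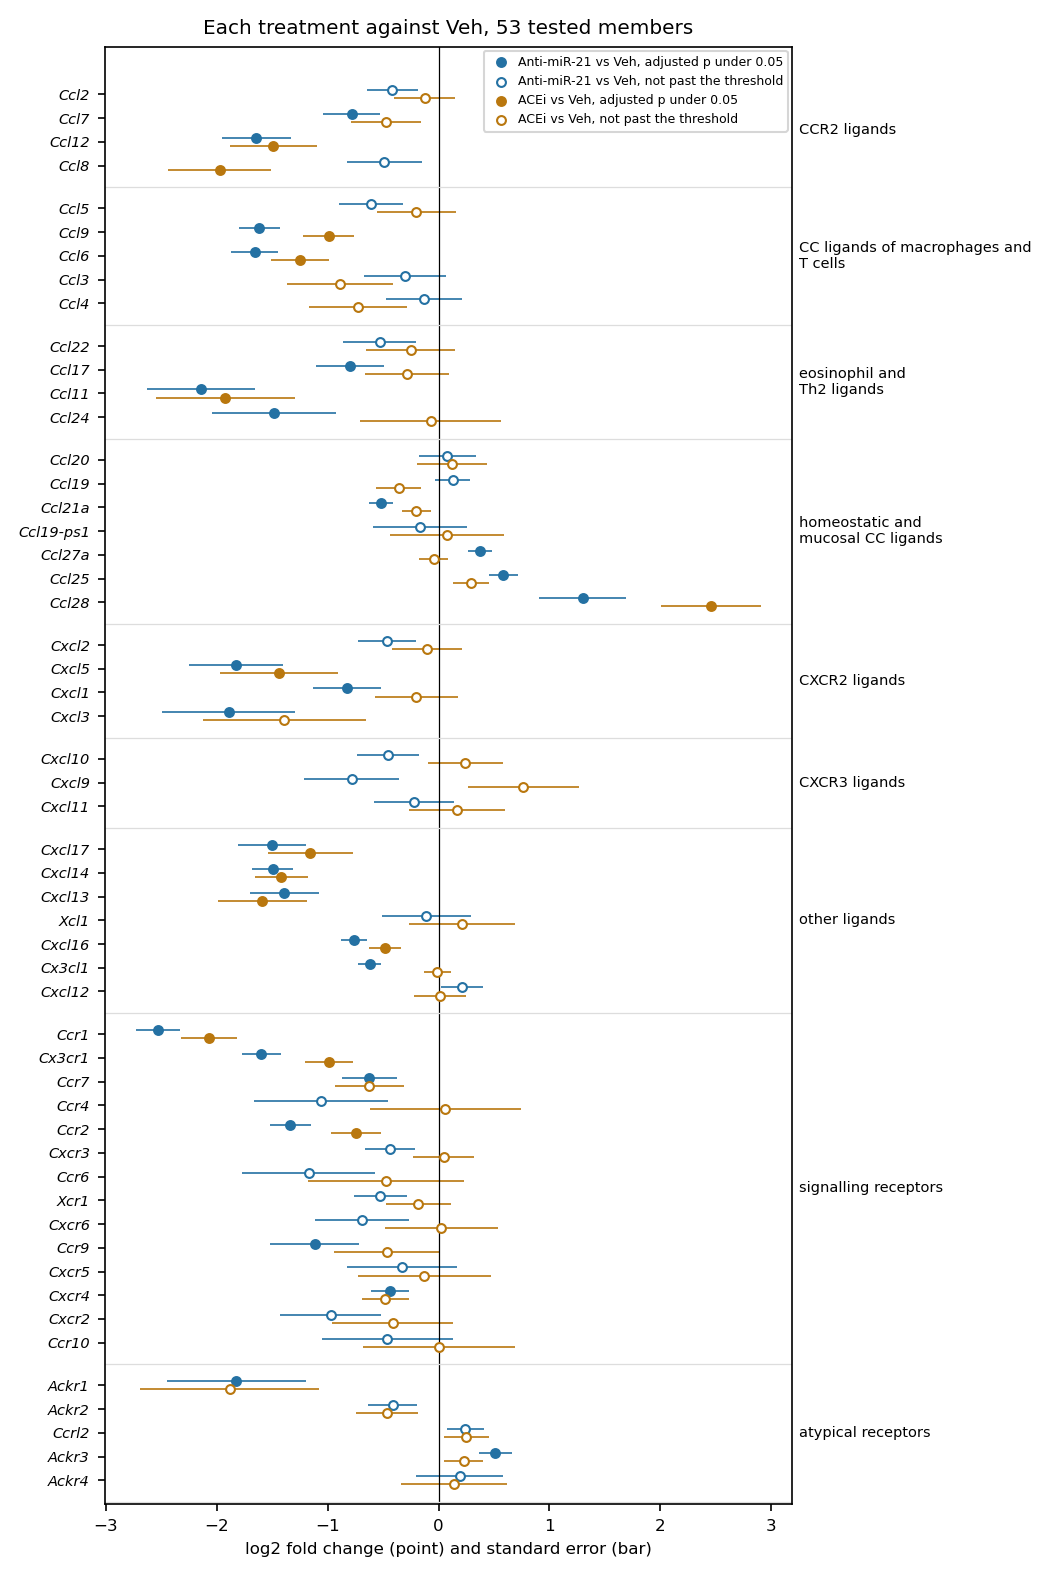
Log2 fold change against Veh (x axis) of 53 of the 54 tested members (rows, by role) for Anti-miR-21 and for ACEi, with standard errors as bars and filled points past the threshold. Most points lie left of 0 for both treatments, Ccr1 furthest at -2.53 and -2.07, and Ccl28 lies furthest right at 1.30 and 2.45. Ackr3, Ccl25 and Ccl27a lie right of 0 and filled for Anti-miR-21, and are unfilled when libraries are scaled by totals alone.

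The receptors of the monocyte lineage fell in both treatments. Ccr1 ran from 1.63 to 2.48 CPM (median 1.90) in Anti-miR-21 mice, and was 2.56, 2.61 and 2.998 CPM in the 3 ACEi mice, against 8.02 to 19.4 CPM in Veh. All treated mice lay far below all Veh mice. The log2 fold changes were -2.53 ± 0.20 (adjusted p = 2.94e-08) and -2.07 ± 0.25 (adjusted p = 1.41e-05). Ccr2 ran from 19.5 to 38.3 CPM (median 23.9) with Anti-miR-21 and was 35.1, 40.4 and 42.0 CPM with ACEi. Neither group reached the lowest Veh mouse, at 54.02 CPM. Against Veh the log2 differences were -1.34 ± 0.18 (adjusted p = 3.71e-06) and -0.74 ± 0.23 (adjusted p = 0.0133), and the ACEi call was lost without ACEi mouse A11 (-0.66, adjusted p = 0.0687). Cx3cr1 ran from 13.9 to 29.2 CPM (median 20.4) with Anti-miR-21 and was 27.4, 33.8 and 34.0 CPM with ACEi. Both lay below every Veh mouse, by -1.60 ± 0.17 (adjusted p = 2.6e-07) and -0.99 ± 0.22 (adjusted p = 0.00128) on the log2 scale. In all, 7 of 15 signalling receptors were lower with Anti-miR-21 and 4 with ACEi, where 30.5% and 19.1% of all genes were. Ccr7, Ccr9 and Cxcr4 were lower with Anti-miR-21 (-0.63, -1.12 and -0.44), while with ACEi they had -0.63, -0.47 and -0.48 and were not called. Cxcr3, the receptor of the interferon-induced ligands, had -0.44 with Anti-miR-21 and 0.05 with ACEi, neither called. Beside these falls the macrophage marker sum was 341 to 518 CPM with Anti-miR-21 and 450 to 532 CPM with ACEi, against 817 to 998 CPM in Veh, and its part was not tested.

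Of the ligands grouped under CCR2 2 of 4 were lower with Anti-miR-21, Ccl7 and Ccl12. With ACEi 2 were lower, Ccl12 and Ccl8, the latter best known for CCR8. Among all genes 30.5% and 19.1% were lower. Ccl2 ran from 17.8 to 46.7 CPM (median 24.1) with Anti-miR-21 and was 31.5, 36.8 and 37.7 CPM with ACEi, against 25.2 to 57.9 CPM in Veh. The groups overlapped, and the log2 fold changes were -0.41 ± 0.23 (95% interval -0.89 to 0.06, adjusted p = 0.121) and -0.13 ± 0.28 (95% interval -0.70 to 0.45, adjusted p = 0.746). By library totals alone Ccl2 was called lower with Anti-miR-21 (-0.74, adjusted p = 0.0122). Ccl7 ran from 2.29 to 5.04 CPM (median 3.11) with Anti-miR-21 and was 3.15, 5.05 and 5.14 CPM with ACEi. Both overlapped Veh, with log2 fold changes of -0.78 ± 0.26 (adjusted p = 0.0127) and -0.47 ± 0.32 (adjusted p = 0.249). The Ccl7 call with Anti-miR-21 was lost without the 4 mice with adipocyte transcripts, Veh A1, A4 and A9 and Anti-miR-21 A12, a set chosen after the values were seen (-0.49, adjusted p = 0.243). Ccl8 ran from 4.54 to 12.9 CPM (median 7.40) with Anti-miR-21 and was 2.16, 2.29 and 4.67 CPM with ACEi. The ACEi mice were all below the lowest Veh mouse, at 8.29 CPM, and the Anti-miR-21 mice were not. On the log2 scale they differed from Veh by -0.49 ± 0.34 (adjusted p = 0.224) and -1.97 ± 0.47 (adjusted p = 0.00238). Ccl12 was lower with both, at -1.64 and -1.49.

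Of the CC ligands of macrophages and effector T cells 2 of 5 were lower in each treatment, Ccl6 and Ccl9. Among all genes 30.5% were lower with Anti-miR-21 and 19.1% with ACEi. Ccl6 ran from 7.13 to 19.9 CPM (median 10.51) with Anti-miR-21 and was 13.02, 15.0 and 18.4 CPM with ACEi, all below the lowest Veh mouse at 29.2 CPM. The log2 fold changes were -1.66 ± 0.21 (adjusted p = 1.35e-06) and -1.25 ± 0.26 (adjusted p = 0.000895). Ccl9 ran from 7.79 to 18.9 CPM (median 10.2) with Anti-miR-21 and was 13.97, 19.2 and 19.3 CPM with ACEi. Again no treated mouse reached the Veh range, and the log2 fold changes were -1.62 ± 0.19 (adjusted p = 4.66e-07) and -0.99 ± 0.23 (adjusted p = 0.00205). Within FCH5Y3GBBXX the ACEi difference of Ccl9 was -0.84 (adjusted p = 0.0726). Ccl5 ran from 11.6 to 17.5 CPM (median 14.1) with Anti-miR-21 and was 16.9, 17.7 and 22.9 CPM with ACEi, both inside the wide Veh range. Its log2 fold changes were -0.61 ± 0.29 (adjusted p = 0.0781) and -0.20 ± 0.35 (adjusted p = 0.683). Ccl3 and Ccl4 were not called in either treatment, with -0.30 and -0.13 for Anti-miR-21 and -0.89 and -0.73 for ACEi.

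The ligands of eosinophils and Th2 cells were lower in 3 of 4 cases with Anti-miR-21 and in 1 with ACEi. Among all genes 30.5% and 19.1% were lower. Ccl17 ran from 1.21 to 3.22 CPM (median 2.29) with Anti-miR-21 and was 1.61, 3.72 and 4.33 CPM with ACEi. Both groups overlapped Veh, whose range was 2.99 to 4.86 CPM. On the log2 scale they differed from Veh by -0.80 ± 0.31 (adjusted p = 0.0319) and -0.29 ± 0.38 (adjusted p = 0.574), and the Anti-miR-21 call was lost without Veh mouse A1 (adjusted p = 0.0743), A4 (0.0579) or A20 (0.0531) or Anti-miR-21 mouse A2 (0.0736), A12 (0.0552) or A15 (0.0528). Ccl22 ran from 3.18 to 7.57 CPM (median 3.83) with Anti-miR-21 and was 3.51, 6.23 and 6.61 CPM with ACEi, within the Veh range in each case. Its log2 fold changes were -0.53 ± 0.33 (adjusted p = 0.171) and -0.25 ± 0.40 (adjusted p = 0.647). Ccl11 was lower with both, at -2.14 and -1.92, and Ccl24 with Anti-miR-21, at -1.48. Without the 4 mice with adipocyte transcripts the calls of Ccl17 and Ccl24 with Anti-miR-21 and of Ccl11 with ACEi (-0.83, adjusted p = 0.109) were lost.

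Ccl28 was the 1 member called higher in both treatments. It ran from 9.05 to 46.8 CPM (median 18.3) with Anti-miR-21 and was 36.6, 49.9 and 71.6 CPM with ACEi, against 6.25 to 14.7 CPM in Veh. All ACEi mice exceeded all Veh mice, while 3 of the Anti-miR-21 mice lay within the Veh range. Against Veh the log2 differences were 1.30 ± 0.39 (adjusted p = 0.00785) and 2.45 ± 0.45 (adjusted p = 0.000284). Without the 4 mice with adipocyte transcripts the first was 1.11 (adjusted p = 0.107). In limma fits of the authors' FPKM on the log2 scale the first was 0.62 to 0.74 and was not called (adjusted p = 0.0854 to 0.128). Ccl25 ran from 3.28 to 4.54 CPM (median 4.08) with Anti-miR-21 and was 3.11, 3.18 and 3.44 CPM with ACEi. Every treated mouse was above the highest Veh mouse, at 2.996 CPM, with log2 fold changes of 0.59 ± 0.13 (adjusted p = 0.000667) and 0.29 ± 0.16 (adjusted p = 0.149). By library totals alone the first was 0.24 (adjusted p = 0.0952). Ccl27a was higher with Anti-miR-21 (0.37, and 0.03, not called, by library totals alone). Ccl21a, of lymphatic endothelium, ran from 10.3 to 13.4 CPM (median 11.9) with Anti-miR-21 and was 12.5, 15.1 and 16.9 CPM with ACEi. The Anti-miR-21 mice lay below all Veh mice and the ACEi mice overlapped them, at -0.52 ± 0.11 (adjusted p = 0.000324) and -0.20 ± 0.13 (adjusted p = 0.24). Ccl20 ran from 1.12 to 3.12 CPM (median 1.61) and was 1.61, 1.84 and 2.28 CPM, with log2 fold changes of 0.08 ± 0.26 (95% interval -0.47 to 0.62, adjusted p = 0.809) and 0.12 ± 0.31 (95% interval -0.55 to 0.78, adjusted p = 0.792). The 3 knockout groups overlapped.

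**Figure D4:**
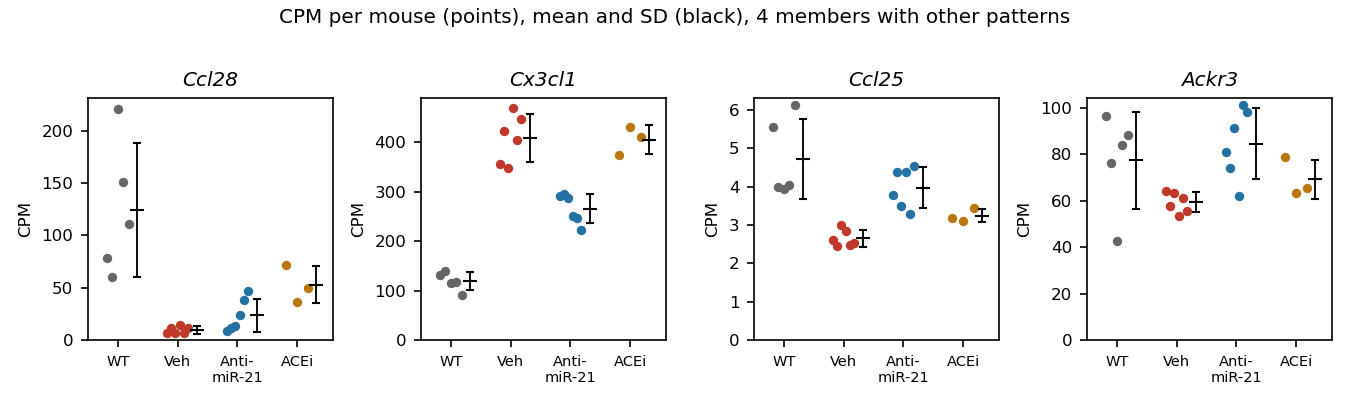
CPM (y axis) of Ccl28, Cx3cl1, Ccl25 and Ackr3 in each mouse of the 4 groups, with the group mean and SD in black. Ccl28 is 60.5 CPM or more in WT and 14.7 CPM or less in Veh with the ACEi mice at 36.6 to 71.6 CPM, and Cx3cl1 is at 374 CPM or more in ACEi and 296 CPM or less in Anti-miR-21. The Ackr3 values shown follow TMM, and the order of its WT and Veh means turns when libraries are scaled by totals alone.

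The CXCR2 ligands were lower in 3 of 4 cases with Anti-miR-21 and in 1 with ACEi, where 30.5% and 19.1% of all genes were. Cxcl5 ran from 1.37 to 4.96 CPM (median 2.28) with Anti-miR-21 and was 1.43, 4.001 and 5.11 CPM with ACEi. Both overlapped Veh only through its lowest mouse, A16, at 4.57 CPM. The log2 fold changes were -1.83 ± 0.42 (adjusted p = 0.000935) and -1.44 ± 0.53 (adjusted p = 0.0367). The ACEi call did not hold without Veh mouse A1 (adjusted p = 0.0718), A4 (0.0516), A9 (0.0648), A19 (0.0624) or A20 (0.0521) or ACEi mouse A11 (0.0790) or A13 (0.183). It was also lost with flow cell as a term in the fit (-1.33, adjusted p = 0.0594) and within FCH5Y3GBBXX (-1.31, adjusted p = 0.25). Cxcl1 ran from 9.42 to 22.6 CPM (median 12.5) with Anti-miR-21 and was 18.5, 22.04 and 24.6 CPM with ACEi. Both overlapped Veh, at -0.83 ± 0.30 (adjusted p = 0.0247) and -0.20 ± 0.37 (adjusted p = 0.698). Its Anti-miR-21 call was lost without Veh mouse A1 (adjusted p = 0.0655), A9 (0.0523) or A19 (0.104) or Anti-miR-21 mouse A2 (0.0516), A15 (0.0554) or A22 (0.0578). Cxcl2 ran from 2.99 to 8.84 CPM (median 4.98) with Anti-miR-21 and was 5.40, 6.95 and 7.84 CPM with ACEi, overlapping Veh in each case. Its log2 fold changes were -0.46 ± 0.26 (adjusted p = 0.131) and -0.11 ± 0.32 (adjusted p = 0.814). Cxcl3 was lower with Anti-miR-21, at -1.89 on the log2 scale and 0.335 CPM or less.

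The CXCR3 ligands were called in 0 of 3 cases with Anti-miR-21 and 0 of 3 with ACEi by edgeR, and in 0 and 0 at an unadjusted p below 0.05 and by DESeq2. Cxcl10 ran from 24.1 to 43.6 CPM (median 30.4) with Anti-miR-21 and was 39.5, 56.8 and 61.7 CPM with ACEi, all inside the Veh range of 15.7 to 81.5 CPM. Against Veh the log2 differences were -0.46 ± 0.28 (95% interval -1.04 to 0.13) and 0.24 ± 0.34 (95% interval -0.46 to 0.95). Cxcl9 ran from 3.04 to 10.1 CPM (median 3.91) with Anti-miR-21 and was 5.80, 14.1 and 22.7 CPM with ACEi. The groups overlapped Veh, at -0.78 ± 0.43 (95% interval -1.68 to 0.12) and 0.77 ± 0.50 (95% interval -0.28 to 1.81). These values turned on a few kidneys. Without Veh mouse A16, Cxcl9 and Cxcl11 were called higher with ACEi (1.40, adjusted p = 0.00852, and 0.82, adjusted p = 0.0235) and Cxcr4 was called lower (-0.55, adjusted p = 0.0305). A16 was singled out after the values were seen. It was the highest Veh mouse for Cxcl9 and Cxcl11 and the lowest for Cxcr4, so leaving it out shifts Veh in the direction of these calls. Without the 4 mice with adipocyte transcripts, Cxcl9 and Cxcl10 were called lower with Anti-miR-21 (-1.27 and -0.78), as were Ccl5 (-0.98), Cxcr3 (-0.67) and Xcr1 (-0.81).

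Of the other ligands 5 of 7 were lower with Anti-miR-21 and 4 with ACEi, where 30.5% and 19.1% of all genes were. Cxcl14 ran from 38.1 to 68.2 CPM (median 52.1) with Anti-miR-21 and was 50.9, 54.8 and 62.1 CPM with ACEi, against 126 to 168 CPM in Veh. No treated mouse reached Veh, and the log2 fold changes were -1.49 ± 0.19 (adjusted p = 1.17e-06) and -1.42 ± 0.24 (adjusted p = 0.000122). Cxcl17 ran from 0.853 to 2.45 CPM (median 1.55) with Anti-miR-21 and was 1.65, 2.001 and 2.76 CPM with ACEi. It overlapped Veh at the low end, at -1.50 ± 0.30 (adjusted p = 0.000285) and -1.16 ± 0.38 (adjusted p = 0.0209). The ACEi call was lost without Veh mouse A1 (adjusted p = 0.0516) or A9 (0.0558) or ACEi mouse A11 (0.0746) or A13 (0.108), and within FCH5Y3GBBXX the difference was -0.65 (adjusted p = 0.321). Both calls were lost without the 4 mice with adipocyte transcripts (-0.78, adjusted p = 0.064, and -0.50, adjusted p = 0.345). Cxcl12 ran from 130.5 to 205.3 CPM (median 171) and was 132, 145 and 162 CPM, with log2 fold changes of 0.21 ± 0.19 (adjusted p = 0.351) and 0.01 ± 0.23 (adjusted p = 0.974). Its treated mice lay inside the Veh range. Cxcl13 and Cxcl16 were lower with both treatments, at -1.39 and -1.59 for Cxcl13 and -0.76 and -0.48 for Cxcl16, and Xcl1 was not called.

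The atypical receptors had 1 higher and 1 lower member with Anti-miR-21, where 28.8% and 30.5% of all genes were. With ACEi 0 of 5 were called by edgeR, where 1 was lower at an unadjusted p below 0.05 and DESeq2 called 1 higher and 1 lower. Ackr3 ran from 62.0 to 101 CPM (median 86.1) with Anti-miR-21 and was 63.5, 65.4 and 78.9 CPM with ACEi. Most Anti-miR-21 mice exceeded the Veh range and A12 did not. On the log2 scale they differed from Veh by 0.51 ± 0.15 (adjusted p = 0.00543) and 0.23 ± 0.18 (adjusted p = 0.334), and by library totals alone the first was 0.17 (adjusted p = 0.33) and within FCH5V5HBBXX 0.44 (adjusted p = 0.067). Ackr1 ran from 0 to 0.525 CPM (median 0.0724) with Anti-miR-21 and was 0.0341, 0.131 and 0.286 CPM with ACEi, overlapping Veh. It had log2 fold changes of -1.82 ± 0.63 (adjusted p = 0.0169) and -1.88 ± 0.81 (adjusted p = 0.0703). Ackr2 ran from 0.480 to 0.942 CPM (median 0.811) and was 0.579, 0.754 and 0.930 CPM, not called in either (-0.41 and -0.47). Ccrl2 ran from 5.40 to 7.61 CPM (median 6.14) and was 5.61, 6.23 and 7.26 CPM, mostly above the Veh median of 5.47 CPM and also not called (0.24 and 0.25).

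The comparison of the treatments with each other asks whether they left the family in a different state. Fractalkine was the 1 member called between them. Cx3cl1 ran from 222 to 296 CPM (median 269) with Anti-miR-21 and was 374, 410.3 and 432 CPM with ACEi, against 348 to 470.4 CPM (median 414) in Veh. After TMM scaling all Anti-miR-21 mice lay below all ACEi mice and below all Veh mice, while the ACEi mice lay within Veh. In the authors' FPKM, scaled by exon length and library size, all ACEi mice lay below all Veh mice, at 126 to 136 against 140 to 181 FPKM. The Anti-miR-21 mice lay lower still, at 63.2 to 98.6 FPKM, so the place of ACEi against Veh depended on the scaling. The log2 fold change of Anti-miR-21 over ACEi was -0.61 ± 0.12 (adjusted p = 0.0254), with -0.62 ± 0.10 (adjusted p = 3.03e-05) for Anti-miR-21 over Veh and -0.01 ± 0.12 (adjusted p = 0.954) for ACEi over Veh. The direct call was lost without Anti-miR-21 mouse A15 (adjusted p = 0.057) or A22 (0.0538) and without ACEi mouse A11 (0.0717), A13 (0.138) or A23 (0.163), with log2 fold changes of -0.66 to -0.56. Of 54 members 1 was called lower (1.85%), where 0.221% of all genes were, and 0 were called higher, where 0.363% of all genes were. At an unadjusted p below 0.05 edgeR had 3 higher and 9 lower members. DESeq2 on the 2 groups called 2 higher, Ccl8 (1.48, adjusted p = 0.0013) and Ccl27a (0.41, adjusted p = 0.0317), and 3 lower, Cx3cl1 (-0.61, adjusted p = 3.615e-06), Cxcl10 (-0.70, adjusted p = 0.0195) and Ccr2 (-0.60, adjusted p = 0.047). In edgeR Ccl8 had 1.48 ± 0.46 (adjusted p = 0.14) and Ccl28 -1.15 ± 0.45 (adjusted p = 0.241). The median log2 fold change was -0.33 over the members and 0.01 over all genes. Neither flow cell held 2 libraries of each treatment.

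Against WT the treated kidneys still held most of the family at a raised level. With Anti-miR-21, 39 of 54 members were called higher than in WT (72.2%), where 23.9% of all genes were, and 1 lower (1.85%), where 19.8% of all genes were. With ACEi, 41 were called higher (75.9%), where 25.2% of all genes were, and 2 lower (3.7%), where 22.5% of all genes were. The median log2 fold changes were 2.20 and 2.46 over the members, against 0.01 and -0.00 over all genes. Within a flow cell 39 members were called for Anti-miR-21 (FCH5V5HBBXX, 3 WT and 5 treated libraries) and 34 for ACEi (FCH5Y3GBBXX, 2 and 2).

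Ccl2 remained 106-fold above WT with Anti-miR-21 and 129-fold with ACEi, and even Ccr1, which fell furthest from Veh, had log2 fold changes of 2.06 ± 0.26 (adjusted p = 2.6e-06) and 2.52 ± 0.28 (adjusted p = 5.33e-07) over WT. Cx3cr1 had 2.71 ± 0.22 and 3.32 ± 0.24 over WT, and Cxcl14 1.82 ± 0.21 and 1.90 ± 0.23. Ccl28 was still lower than WT, at -2.39 ± 0.40 (adjusted p = 8.86e-05) and -1.24 ± 0.49 (adjusted p = 0.0437). The ACEi call of Ccl28 was lost without WT mouse A14 (adjusted p = 0.12), A17 (0.0721) or A18 (0.0516) or ACEi mouse A13 (0.159) or A23 (0.118), and by library totals alone (-0.92, adjusted p = 0.1). The same call was lost with no filter on counts (adjusted p = 0.0556) and by limma on log2 FPKM (-0.82 to -0.78, adjusted p = 0.12 to 0.165). Ccl25 was not called against WT with Anti-miR-21 (-0.25) and was lower with ACEi (-0.54, adjusted p = 0.0111; by library totals alone -0.22, adjusted p = 0.255, and within FCH5Y3GBBXX -0.67, adjusted p = 0.111). Ackr2 was higher with both (0.80 and 0.75). Its Anti-miR-21 call was lost by DESeq2 (adjusted p = 0.0538) and within FCH5V5HBBXX (0.52, adjusted p = 0.214). Its ACEi call (adjusted p = 0.0441) was lost by DESeq2 (adjusted p = 0.208), in a fit of the 2 groups alone (0.107) and with no filter on counts (0.0716), as well as without WT mouse A3 (0.063), A17 (0.0971) or A18 (0.0975) or ACEi mouse A11 (0.0901) or A13 (0.181). The eotaxins Ccl11 and Ccl24, the neutrophil pair Cxcl3 and Cxcr2 and Ackr1 were called higher by edgeR against WT in Veh alone. Whether the treated groups returned to WT is not shown by this. With ACEi the log2 fold changes of the rest over WT were 1.41 ± 0.67 (adjusted p = 0.0929) for Ccl11, 1.70 ± 0.72 (adjusted p = 0.0585) for Ccl24, 2.09 ± 0.95 (adjusted p = 0.0784) for Cxcl3 and 1.15 ± 0.62 (adjusted p = 0.133) for Cxcr2. DESeq2 called Ccl11 higher than WT with Anti-miR-21 (1.18, adjusted p = 0.0072) and with ACEi (1.44, adjusted p = 0.0173), and none of the others in this set.

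Levels can be set side by side between genes only per length, for which the deposited FPKM serve (fragments scaled by exon length and library size by the authors). Ccl21a and Ackr1 had no FPKM entry and Ccl19 had several, so they have no place in the order below. In Veh kidney Cx3cl1 stood first, at 162 ± 16.2 FPKM (SD, n = 6), then Cxcl16 at 144 ± 15.3 FPKM and Cxcl14 at 102 ± 13.1 FPKM. The neighbours Cx3cl1 and Cxcl16 overlapped between mice, and Cxcl16 shares its locus with Zmynd15 on the opposite strand. Cxcl12 followed at 80.0 ± 24.2 FPKM, which reached into the range of Cxcl14. In WT the order was different, with Cxcl12 at 62.6 ± 19.6 FPKM first and Ackr3 and Cx3cl1 next, both at 31.3 FPKM, and Ccl28 at 27.4 ± 14.1 FPKM. Ccl2 was at 53.7 ± 19.7 FPKM in Veh, where it did not stand apart from Ccl5 (50.1 ± 27.2) or Cxcl10 (47.7 ± 24.3), and at 0.258 ± 0.151 FPKM in WT. The most abundant receptors in Veh were Ackr3 at 36.4 ± 3.77 FPKM, Ccr2 at 22.8 ± 2.48 FPKM and Cx3cr1 at 20.96 ± 2.22 FPKM, and the last pair overlapped. On this scale the mean of Ackr3 was higher in Veh than in WT, where TMM-scaled CPM put it lower.

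**Figure D5:**
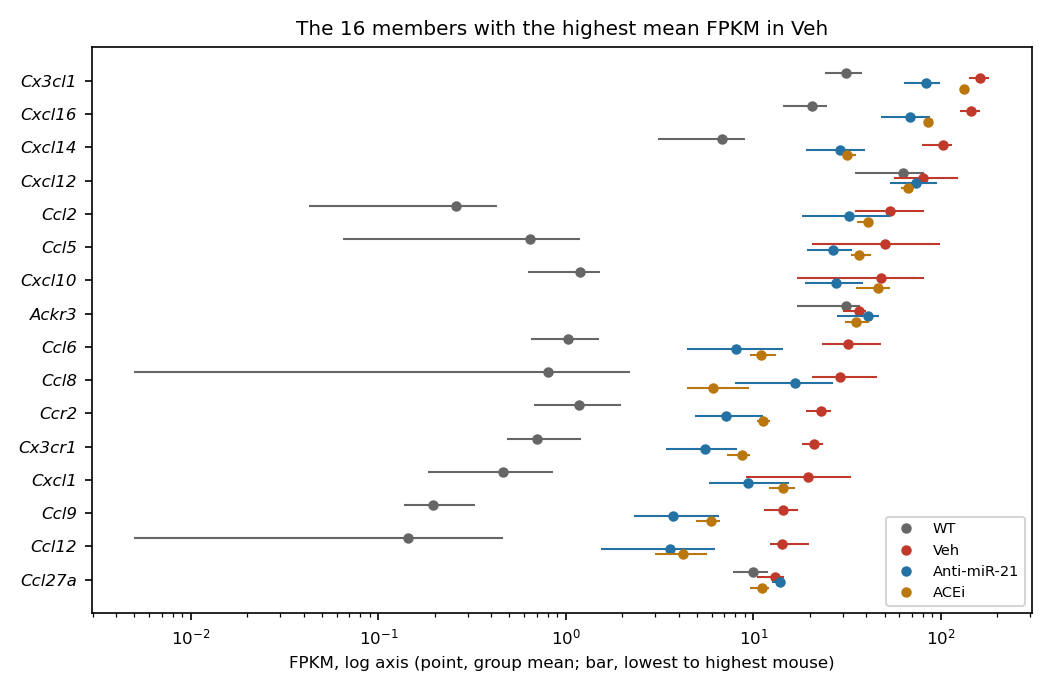
Deposited FPKM (x axis, log scale) of the 16 members with the highest mean in Veh, in the 4 groups, each with the group mean as a point and a bar from the lowest to the highest mouse, cut at 0.005 where a mouse is at 0. Ccl21a and Ackr1, without an FPKM entry, and Ccl19, with several, were not ranked. Cx3cl1 leads Veh at 162 FPKM, and Ccl2 moves from 0.258 FPKM in WT to 53.7 FPKM in Veh while the bars of Cxcl12 overlap in all groups.

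Genes that carry the signal inside the migrating cell were counted in the same fits. In a list of 28 genes of chemokine signal transduction 26 were higher in Veh than WT, where 39% of all genes were, and 1 was lower, where 34% were, with a median log2 fold change of 2.11 against 0.07 over all genes. Rac2, a GTPase of blood cells that drives cell movement, rose by 3.73 and Pik3cg, the lipid kinase under chemokine receptors, by 3.35. Ptk2b, a calcium-dependent kinase, fell by 0.48 ± 0.07. With Anti-miR-21 25 were lower than in Veh, where 30.5% of all genes were, and 1, Ptk2b, was higher, where 28.8% were. With ACEi 14 were lower, where 19.1% of all genes were, and 0 higher, where 21% were. For ACEi an unadjusted p below 0.05 gave 19 lower and 0 higher and DESeq2 20 lower and 0 higher. Rac2 had -1.01 with Anti-miR-21 and -0.49 with ACEi, and Pik3cg -1.34 and -0.83. Between the treatments 0 of 28 were called by edgeR, with 10 lower and 0 higher at an unadjusted p below 0.05 and 0 by DESeq2.

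A second list held 8 genes that attract cells or trim chemokines under other symbols, of which 7 were tested and Gpr1 was not. In Veh 4 of the 7 were higher than in WT, where 39% of all genes were, and 1 was lower, where 34% were. Cd74, the receptor of MIF and the invariant chain of antigen presentation, rose by 3.86, the chemerin receptor Cmklr1 by 2.37, and chemerin itself, Rarres2, by 0.57, while Mif fell by 0.44 ± 0.10. Pf4, the platelet chemokine CXCL4, rose by 2.92. With Anti-miR-21 4 were lower, where 30.5% of all genes were, and 1 was higher, where 28.8% were. With ACEi 3 were lower, where 19.1% of all genes were, and 1 was higher, where 21% were. The latter was Dpp4 (0.39), a protease that trims chemokines. Pf4 was also lower with Anti-miR-21 than with ACEi (-1.44, adjusted p = 0.0393), the 1 call of this list between the treatments.

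Markers of the cells that make or answer chemokines moved as well, and their part in the results above was not tested. Of all genes tested 39% were higher and 34% lower in Veh than in WT. Against Veh 30.5% were lower and 28.8% higher with Anti-miR-21, and 19.1% lower and 21% higher with ACEi. Of 6 macrophage markers 6 were higher in Veh than WT, 6 lower with Anti-miR-21 than Veh and 6 lower with ACEi. Of 6 T cell markers 6 were higher in Veh and 5 lower with Anti-miR-21. With ACEi 0 were called by edgeR, at an unadjusted p below 0.05 or by DESeq2, and the sums were 2.18 to 3.24 CPM in WT, 13.7 to 39.9 in Veh, 9.81 to 18.3 in Anti-miR-21 and 14.4 to 22.8 in ACEi. Of 5 fibroblast markers 5 were higher in Veh, 4 lower with Anti-miR-21 and 2 lower with ACEi, with sums of 117 to 304 CPM in WT, 2273 to 2818 in Veh, 539 to 1115 in Anti-miR-21 and 1191 to 1330 in ACEi. Of 5 proximal tubule markers 5 were lower in Veh and 5 higher in each treatment, with sums of 6394 to 10660 CPM in Anti-miR-21 and 6650 to 8710 CPM in ACEi. Injured tubule markers rose in 3 of 3 cases, from 14.4 to 31.0 CPM in WT to 523 to 1037 in Veh, and 2 fell with Anti-miR-21 and 1 with ACEi.

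The remaining marker lists gave smaller counts, which were not tested against the shares of all genes. Those shares were 39% higher and 34% lower in Veh against WT. They were 30.5% lower and 28.8% higher with Anti-miR-21, and 19.1% lower and 21% higher with ACEi, against Veh. In Veh against WT 4 of 5 B and plasma cell markers, 4 of 4 dendritic cell, 2 of 4 tested neutrophil, 2 of 2 tested eosinophil, 1 of 4 NK cell, 1 of 2 tested follicular dendritic cell, 3 of 4 adipocyte and 2 of 3 podocyte markers were higher. Lymphatic endothelium had 3 of 4 higher and 1 lower, and blood endothelium 2 of 5 higher and 2 lower. Lower were 2 of 2 thick ascending limb, 1 of 2 collecting duct and 3 of 3 red blood cell markers, the last with sums of 648 to 3884 CPM in WT and 7.45 to 243 in Veh. The 1 tested adrenal gland marker was not called. With Anti-miR-21 against Veh 2 B and plasma cell, 1 dendritic cell, 1 neutrophil, 1 eosinophil, 1 follicular dendritic cell and 2 lymphatic endothelium markers were lower, and 2 blood endothelium, 2 thick ascending limb, 1 collecting duct, 3 podocyte and 3 red blood cell markers were higher. With ACEi 1 neutrophil, 1 follicular dendritic cell, 1 lymphatic endothelium and 3 adipocyte markers were lower, and 2 blood endothelium, 1 collecting duct, 2 podocyte and 3 red blood cell markers were higher.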

How the data were processed

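Kidney RNA of 20 mice was sequenced. The authors aligned reads to mouse GRC Build 38 with OmicSoft Aligner 4 in OmicSoft Studio 9.0 and deposited expected counts per gene, which need not be whole (29.1% of positive values were not), and FPKM, which they scaled per exon length and library. The study's methods name Ensembl release 83 and the deposited annotation table release 76. The deposited library table gives counts of alignments (70004591 to 73294858 per library) and the flow cell, and a deposited annotation table gives exon length in base pairs (another unit, used only to name FPKM entries). Of the FPKM columns, 3 belong to no sample here and were not used. Symbols were found for 98.8% of gene IDs.

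Members and gene lists were chosen with earlier results of these data known, so no p-value is given over a list. Expected counts were rounded and fitted in edgeR 4.0.16 (R 4.3.3) with TMM scaling (factors 0.7705 to 1.264), filterByExpr (minimum 10 counts, 15 in all), 1 coefficient per group over the 20 mice and the quasi-likelihood test, adjusted by Benjamini-Hochberg over 17622 genes at 0.05 for each of 6 comparisons. Replicates are separate mice. Fits were tested on simulated counts. FPKM were log2-transformed with a pseudocount of 1 or 0.1 for limma 3.58.1, and DESeq2 1.42.0 was the other count test. For FPKM, a filter of 0.1 in 3 mice was applied. Counting intervals are exact at 95% and, like the floor of 3 counts, cover counting error only. Values per mouse are given for 28 members: in each of 9 role groups the 2 with the highest mean log2 CPM and the 2 with the largest absolute change between Veh and WT, any member past the threshold against the main direction, and any called between the treatments. Some genes, 1 member among them, are not reported here. Other members are given by fold change, and those singled out were chosen after their values were seen. miRNA and promoter sequences came from RefSeq tables on GRCm38.p6, with promoters for 47 of 64 members, and UTR windows from GENCODE vM21 on GRCm38. Listed markers covered macrophage, T, B and plasma, NK, neutrophil, dendritic, eosinophil, follicular dendritic, endothelial, fibroblast, tubule, podocyte, adipocyte, adrenal and red blood cells.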

Additional observations from a re-analysis of the deposited data

Results flagged for a closer look

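Levels of the 28 members given mouse by mouse were searched for a mouse far from the rest of its group, in the groups of 5 or 6 mice. Of 83 sets of values 7 had such a mouse by Dixon's test at 95%, and chance alone picks out about 1 in 20. In Veh these were Ccl6 in mouse A9, at 54.1 CPM with the next mouse at 38.3, Cxcl2 in A19, at 13.1 CPM with the next at 7.49, and Cxcl9 in A16, at 22.8 CPM with the next at 8.63. In WT they were Ccl21a in A17, at 9.36 CPM with the next at 6.76, Cxcl2 in A17, at 0.204 CPM with the next at 0.0845, and Cx3cr1 in A6, at 5.33 CPM with the next at 2.94. In the Anti-miR-21 group it was Cxcl9 in A2, at 10.1 CPM with the next at 4.61. Cx3cl1 stands out as the member whose change against Veh differed between the treatments, with a log2 difference of -0.61 for Anti-miR-21 minus ACEi by edgeR's test of the contrast.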

How the results depend on the processing

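Over 104 fold changes of named members and 2340 values under other settings, 2246 kept direction and call, 90 kept direction but lost the call and 4 reversed. The 4 were Ackr3 in Veh against WT, at 0.20 by library totals alone and 0.26 by limma on log2(FPKM + 1), on log2(FPKM + 0.1) and without the filter, where TMM gave -0.39. Library totals alone moved the median of all genes to 0.65 in Veh against WT, -0.38 in Anti-miR-21 against Veh and -0.32 in ACEi against Veh. For Anti-miR-21 against Veh, limma on log2(FPKM + 1) called 1 higher and 36 lower. Counts by limma are of FPKM entries, and Ccl19 had several entries. From Veh to Anti-miR-21 the mean of 1 Ccl19 entry fell from 10.9 to 5.01 FPKM and that of another rose from 2.57 to 5.23. Ccl28 (0.62, adjusted p = 0.0927), Ccl25 (0.18, adjusted p = 0.0747) and Ackr3 (0.15, adjusted p = 0.423) were not called in that fit. The cause of these differences between settings was not tested. Without the 4 mice with adipocyte transcripts, a set chosen after seeing the data, calls were also lost for Cxcl1 with Anti-miR-21 (-0.72, adjusted p = 0.159) and for Cxcl5 (-1.20, adjusted p = 0.182) and Cxcl16 (-0.41, adjusted p = 0.1) with ACEi.

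The number of members called changed by over 1.5 times in a few settings. Asking for at least 10 counts in every mouse left 21 members, of which 18 were called in Veh against WT, 14 in Anti-miR-21 and 8 in ACEi against Veh, and 18 in each treatment against WT, with fewer genes tested. For ACEi against Veh, 8 were called within FCH5Y3GBBXX, and 24 FPKM entries by limma on log2(FPKM + 1) with and without the filter. Between the treatments DESeq2 called 5 members, and limma 2 entries on log2(FPKM + 1) and 0 on log2(FPKM + 0.1). Leaving out each mouse in turn gave 47 to 49 members for Veh against WT, 23 to 31 for Anti-miR-21 and 10 to 18 for ACEi against Veh, 38 to 42 for each treatment against WT, and 0 to 2 between the treatments (2 without Anti-miR-21 mouse A8, 0 without A15, A22 or any ACEi mouse).

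No paired analysis was possible because replicate names are mouse numbers that occur once and pair no mice. Fits within FCH5V5HBBXX with ACEi and within FCH5Y3GBBXX with Anti-miR-21 could not be made, since each held 1 such library. ACEi rests on 3 mice, and members under 1 CPM rest on few counts.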
